A study of Mus musculus with 18 samples.

Results

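The genes described here drive DNA replication and mitosis. A list of 54 such genes was compared among 6 groups of activated mouse CD8+ T cells on 18 Affymetrix Mouse 430 2.0 arrays, and 53 of the 54 were measured, 29 of S phase and 24 of mitosis. They are 53 of 18194 genes measured by a probe set annotated to that symbol alone. Where a gene had several such probe sets, the probe set with the highest mean over the 18 arrays was used. Ccnb1 was not analysed here.

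Naive CD8+ T cells came from OT-I Thy1.1 TCR Tg mice, labelled male, whose transgenic receptor recognises the ovalbumin peptide SIINFEKL. They were primed for 48 h on irradiated C57BL/6 splenocytes carrying that peptide, so every group had received antigen. After enrichment of viable cells over Ficoll the cultures were kept for 24 h in medium alone (media control) or in the same medium with 1 cytokine at 100 ng/ml, which was IL-2, IL-15, IL-21, IL-4 or IL-7. Each group held 3 biological replicates. The RNeasy kit served for replicates 1 and 2, and TRIzol followed by Direct-zol for replicate 3. The comparison of each cytokine with the media control asks which genes of the cell division programme differed once priming had ended, and the 10 comparisons between cytokines ask where the cytokines differed.

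All 5 cytokines signal through receptors that share the common gamma chain. A dividing cell copies its chromosomes in S phase and separates the copies in mitosis. S phase genes are switched on largely by E2F transcription factors, which Rb family proteins hold back until cyclin-dependent kinases release them. Genes of mitosis follow later, largely through promoter elements called the CHR and the CCAAT box, bound by the MuvB complex and NF-Y. Primed CD8+ T cells are known for very short cell cycles, and IL-2 is a classical growth factor of T cells.

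The promoters of the 2 sets differed in these elements. RefSeq windows (GRCm38.p6) from 250 bases before to 50 after the annotated start were held for 25 of the 29 S phase genes and 19 of the 24 mitosis genes. An E2F motif (TTTCCCGC, TTTGGCGC, TTTCGCGC or TTTGCCGC on either strand) lay in 41.9% of the 31 S phase windows, in 5.26% of the 19 mitosis windows and in 2.26% of all 32851 windows. A CHR motif (TTTGAA or TTCGAA on either strand) lay in 22.6% of the S phase windows, 78.9% of the mitosis windows and 19.2% of all windows. The CCAAT box (CCAAT on either strand) was found in 61.3%, 78.9% and 37.4%. These are matches of letters, which say nothing of binding. The stretches below belong to genes that the comparisons turn on and, for Mcm6, to a helicase gene with several E2F matches. Capitals mark matches to the 3 motifs, and each sequence is read from 5′ to 3′ on the strand of its gene.
Cdc6 (chr11:98908001-98908150, plus strand, the 150 bases before the start, with an E2F match 138 bases before it): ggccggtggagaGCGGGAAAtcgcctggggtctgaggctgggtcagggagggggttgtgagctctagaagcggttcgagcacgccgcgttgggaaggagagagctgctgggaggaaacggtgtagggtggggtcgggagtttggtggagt
E2f7 (chr10:110745229-110745438, plus strand, the 210 bases before the start, with an E2F match 198 bases and CCAAT boxes 46 and 14 bases before it): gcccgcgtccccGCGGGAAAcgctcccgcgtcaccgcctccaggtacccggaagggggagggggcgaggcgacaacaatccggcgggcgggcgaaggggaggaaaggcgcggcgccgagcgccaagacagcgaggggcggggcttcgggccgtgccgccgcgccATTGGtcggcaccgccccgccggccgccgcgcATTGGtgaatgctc
Mcm6 (chr1:128359706-128359825, minus strand, the 120 bases before the start, with overlapping E2F matches 110 and 106 bases, another 47 bases and CCAAT boxes 57 and 14 bases before it): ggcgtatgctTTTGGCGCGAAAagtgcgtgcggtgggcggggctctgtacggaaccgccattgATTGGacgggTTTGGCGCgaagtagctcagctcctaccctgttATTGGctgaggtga
Ccnb2 (chr9:70421535-70421664, minus strand, from 110 bases before the start to 20 bases past it, with CCAAT boxes 87, 54 and 21 bases before and a CHR match from base 5 after): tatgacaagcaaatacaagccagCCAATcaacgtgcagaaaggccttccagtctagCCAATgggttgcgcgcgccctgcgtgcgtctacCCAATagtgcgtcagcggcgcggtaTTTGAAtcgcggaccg
Cenpa (chr5:30666766-30666910, plus strand, from 120 bases before the start to 25 bases past it, with CCAAT boxes 109 and 86 bases before and a CHR match from base 17 after): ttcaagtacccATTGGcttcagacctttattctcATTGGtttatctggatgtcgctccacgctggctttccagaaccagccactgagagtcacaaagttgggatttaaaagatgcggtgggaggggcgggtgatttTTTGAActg
Kif11 (chr19:37376282-37376381, plus strand, the 100 bases before the start, with a CCAAT box 45 bases and a CHR match 19 bases before it): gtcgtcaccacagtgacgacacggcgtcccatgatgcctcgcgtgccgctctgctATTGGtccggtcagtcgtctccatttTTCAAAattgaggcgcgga

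Levels are log2 values, on which 1 unit is a 2-fold difference, after the 18 arrays had been brought to the same distribution. A gene is called where limma's adjusted p over all 18194 genes fell under 0.05. Because arrays of the same replicate number deviated together, each count is also given with the replicate number as a block in the same fit. The array medians as deposited lay between 4.47 and 4.52 in replicate 3 of the media control, IL-2 and IL-15 and between 5.76 and 5.84 in the other 15 arrays. On the values as deposited no member was called in any of the 15 comparisons. Without these 3 arrays the S phase genes called against the media control were 8 for IL-4, 7 for IL-2, 2 for IL-7, 1 for IL-21 and 0 for IL-15. The mitosis genes called were 2 for IL-2, 1 each for IL-4 and IL-21 and 0 for IL-7 and IL-15. Counts from fits that leave out arrays, here and below, are given without the share of all genes called in the same fit. The beta-actin signal of the 3′ probe set exceeded that of the 5′ probe set by 0.59 to 0.68 in those 3 arrays. In the remaining TRIzol arrays it did so by 0.37 to 0.39, and in the 12 RNeasy arrays by 0.19 to 0.31. All 7 CD8+ T cell markers measured lay above background, set at 6.72 by genes of other tissues, and so did 3 of 7 myeloid, 1 of 8 B cell, 1 of 5 red cell and 1 of 3 CD4+ T cell markers. Of the S phase genes 28 of 29 lay above background (the exception was Tyms), as did all 24 mitosis genes and 8841 of all genes.

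The median change of the S phase genes from the media control was positive with each of the 5 cytokines. The median change of the mitosis genes was lower with each, positive with IL-4, IL-7 and IL-15 and negative with IL-2 and IL-21. With IL-2 the median change from the media control was 0.46 over the 29 S phase genes and -0.17 over the 24 mitosis genes. In the same order they were 0.56 and 0.09 under IL-4, 0.47 and 0.14 under IL-7, 0.26 and 0.09 under IL-15, and 0.17 and -0.11 under IL-21. The median over all genes stayed between -0.02 and 0.01 in these 5 comparisons. On the values as deposited the median of all genes itself shifted by 0.41 to 0.43 with IL-4, IL-7 and IL-21, and the mitosis median with IL-21 then read 0.33, its only change of sign. All 5 comparisons share the media control arrays. Replicate 2 gave the largest S phase shift for 4 cytokines: its median change under IL-2 was 0.84, against 0.35 and 0.31 in replicates 1 and 3, and under IL-4 0.93, against 0.36 and 0.43. With IL-15 the medians of replicates 1 to 3 were 0.12, 0.21 and 0.37, and with IL-21 they were 0.00, 0.30 and 0.20.

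**Figure D1:**
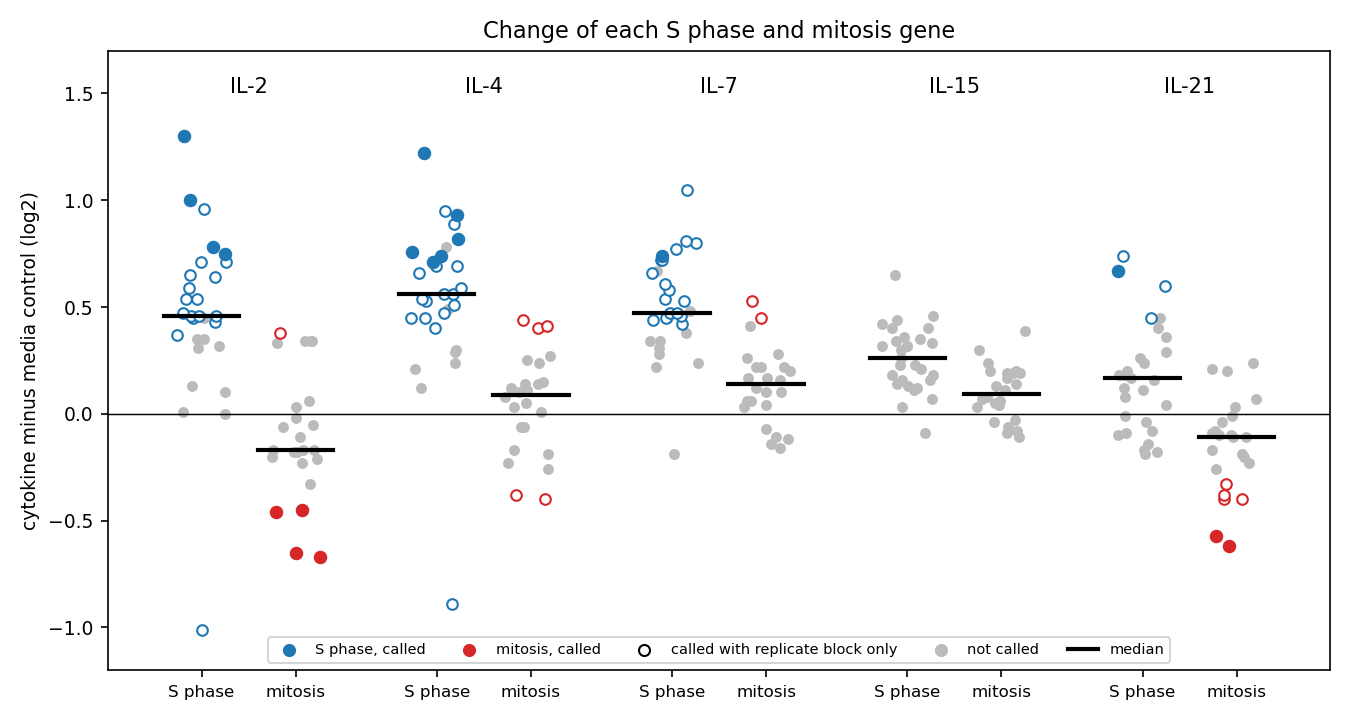
Change of each of the 29 S phase and 24 mitosis genes from the media control (log2, y axis) for each cytokine; each point is a gene, the bar is the median, filled points were called, open coloured points were called only with the replicate number as a block. The S phase medians run from 0.17 (IL-21) to 0.56 (IL-4) and the mitosis medians from -0.17 (IL-2) to 0.14 (IL-7).

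Among the 3 media control arrays the mean level of the S phase genes was 10.66, 10.13 and 10.43 (replicates 1 to 3). The IL-4 arrays gave 10.98, 10.98 and 10.87, the IL-7 arrays 10.94, 10.92 and 10.87 and the IL-2 arrays 10.90, 10.93 and 10.75. All 9 of these lay above every media control array. The IL-15 arrays gave 10.78, 10.35 and 10.86 and the IL-21 arrays 10.63, 10.43 and 10.67, so both groups overlapped the media control. The mean level of the mitosis genes was 11.04, 10.89 and 11.00 in the media control, 10.78, 11.05 and 10.80 with IL-2 and 10.79, 10.74 and 10.94 with IL-21. The IL-4 arrays gave 10.95, 11.13 and 11.00, those of IL-7 11.03, 11.20 and 11.10 and those of IL-15 11.09, 11.08 and 11.05.

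The myeloid markers (Lyz2, Cd14, Csf1r, Adgre1, Cd68, Fcgr3 and Clec7a) moved the other way from the S phase genes. Their mean level was 6.75, 7.91 and 6.35 in the media control arrays and 5.80, 5.88 and 5.64 with IL-2. The IL-4 arrays gave 5.92, 6.31 and 5.79, those of IL-7 6.04, 6.29 and 5.57, those of IL-15 6.35, 7.18 and 5.79 and those of IL-21 6.32, 6.96 and 5.73. The 3 arrays with the lowest S phase level, replicate 2 of the media control, IL-15 and IL-21, were also the 3 with the highest myeloid level. As a list the myeloid markers exceeded the background level of 6.72 only in these 3 arrays and in replicate 1 of the media control. Replicate 3 of the media control had nearly the S phase level of replicate 2 of IL-21 (10.4272 and 10.4251), with a myeloid level of 6.35. The CD8+ T cell markers were likewise highest in the media control (12.38 to 12.71) and lowest with IL-2 (11.74 to 12.14), and the B cell markers, at 5.34 to 5.41 in the media control and 4.98 to 5.12 with IL-2, lay below background as a list in all arrays. The part of these markers in the results was not tested. In RNA from whole cultures, fewer cells of a type and less RNA per cell cannot be told apart.

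**Figure D2:**
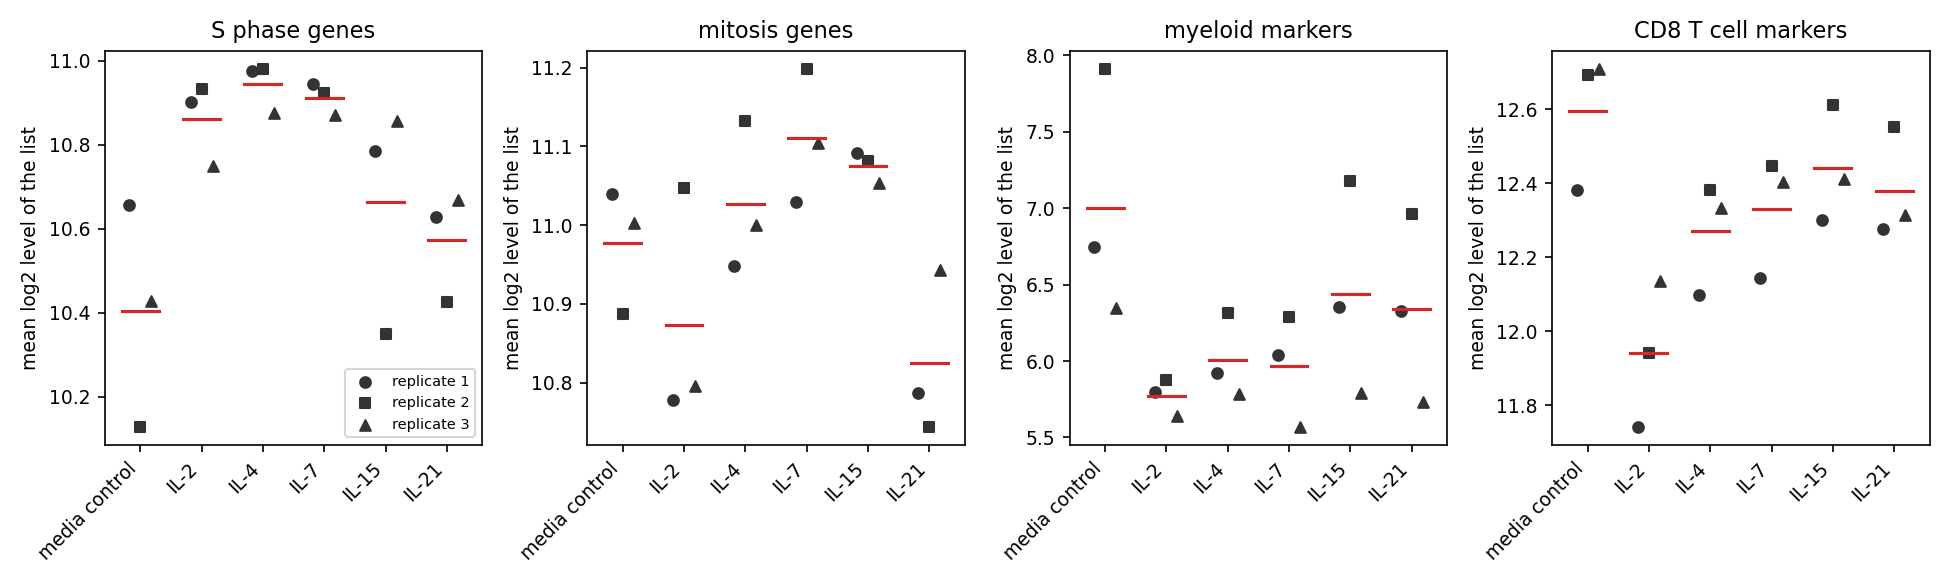
Mean log2 level of the S phase genes, the mitosis genes, the myeloid markers and the CD8 T cell markers in each of the 18 arrays, by group; symbols stand for replicates 1 to 3 and the red line is the group mean. The S phase panel shows all IL-2, IL-4 and IL-7 arrays above the media control arrays, and the myeloid panel shows replicate 2 of the media control at 7.91.

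With IL-2 genes of both sets were called, in opposite directions. Cdc6, Gins1, Mcm2 and E2f7 rose, 4 of 29 S phase genes (13.8%) against 7.83% of all genes called higher, and no S phase gene was called lower against 8% of all genes. With the block 19 rose and 1 fell, 65.5% and 3.45% of the members, against 15.5% and 15.1% of all genes. Ccnb2, Cenpa, Kif23 and Nusap1 fell, 4 of 24 mitosis genes (16.7%) against 8% of all genes called lower, and none rose. With the block these 4 fell and Bub1, a checkpoint kinase, rose. The 16.7% lower was then near the 15.1% of all genes, and the 4.17% higher was below their 15.5%. The S phase count rested on single arrays: it was 7 without replicate 1 of the media control, 2 without its replicate 2, 2 without replicate 1 of IL-2 and 7 without replicate 3 of IL-2. The mitosis count was 2 without replicate 3 of the media control and 2 without replicate 1 of IL-2. Within the RNeasy arrays (replicates 1 and 2) 14 S phase genes and 3 mitosis genes were called. Without replicate 1 of every group both counts were 0, and without replicate 2 they were 1 and 2. The TRIzol arrays, with 1 array a group, allow no test of their own.

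Cdc6, which loads the replicative helicase onto origins, read 9.72, 9.01 and 9.53 in the media control and 10.77, 10.74 and 10.65 with IL-2. The IL-4 arrays read 10.58, 10.55 and 10.79, those of IL-7 10.37, 10.50 and 10.52, those of IL-15 10.04, 9.45 and 10.71 and those of IL-21 9.94 and 10.53 in replicates 2 and 3, with replicate 1 between them. Only the IL-15 arrays overlapped the media control, and those of the other 4 cytokines lay above it. The change under IL-2 was 1.30 ± 0.25 (SE, adjusted p = 0.00219), that under IL-4 1.22 (adjusted p = 0.00634) and that under IL-7 1.05, which missed the threshold (adjusted p = 0.0511) and passed it with the block (adjusted p = 0.00394). With IL-21 it was 0.74 (adjusted p = 0.11, and 0.0186 with the block) and with IL-15 0.65 (adjusted p = 1).

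Mcm2, a subunit of the replicative helicase, read 10.71, 10.24 and 10.12 in the media control, 11.30, 11.34 and 10.77 with IL-2 and 11.38, 11.46 and 11.02 with IL-4. The groups did not overlap, and the change was 0.78 ± 0.20 with IL-2 (adjusted p = 0.0127) and 0.93 ± 0.20 with IL-4 (adjusted p = 0.00767). With IL-7 Mcm2 read 11.13, 11.23 and 10.86, a change of 0.72 (adjusted p = 0.0867, and 0.00548 with the block). Gins1, a subunit of the complex that completes the active helicase, read 10.02, 9.11 and 9.72 in the media control and 10.50, 10.50 and 10.84 with IL-2. All 3 IL-2 arrays stood above all 3 control arrays, and Gins1 rose by 1.00 ± 0.29 (adjusted p = 0.0257).

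E2f7, an E2F factor that represses other E2F targets, was called against the media control with 4 of the 5 cytokines. It read 7.08, 7.10 and 6.96 in the media control and 7.38, 7.39 and 7.62 with IL-15, the exception. The IL-2 arrays read 7.73, 8.07 and 7.58, those of IL-4 7.70, 8.07 and 7.50, those of IL-7 7.59, 7.93 and 7.85 and those of IL-21 7.64, 7.77 and 7.74. All 15 cytokine arrays lay above all 3 media control arrays. By size, the changes were 0.75 for IL-2 (adjusted p = 0.00347), 0.74 for IL-7 (adjusted p = 0.0265), 0.71 for IL-4 (adjusted p = 0.00905) and 0.67 for IL-21 (adjusted p = 0.0146), each with an SE of 0.16. With IL-15 the change was 0.42 (adjusted p = 1).

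E2f2, an E2F factor usually grouped with the activators, was the S phase gene that went the other way. Its levels were 10.62, 10.74 and 9.76 in the media control, 9.66, 9.62 and 8.81 with IL-2 and 9.79, 9.61 and 9.05 with IL-4. Replicate 3 was low in every group, and within each replicate number the IL-2 and IL-4 arrays lay below the control. The difference was -1.01 ± 0.36 with IL-2 (adjusted p = 0.0708) and -0.89 ± 0.36 with IL-4 (adjusted p = 0.155), and with the block the adjusted p fell to 5.6e-05 and 3.2e-04, past the threshold. With IL-7, IL-15 and IL-21 the difference was -0.19, -0.09 and -0.10. E2f1, another activator, read 8.09, 7.57 and 7.26 in the media control and 8.71, 8.95 and 8.14 with IL-4. Its change with IL-4 was 0.95 ± 0.34 (adjusted p = 0.0991) and passed only with the block (adjusted p = 4.4e-04). E2f8, which represses with E2f7, changed by 0.56 with IL-4 (adjusted p = 0.0794, and 0.00837 with the block).

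Ccnb2, a B-type cyclin of mitosis, read 11.94, 11.87 and 12.30 in the media control and 11.26, 11.52 and 11.33 with IL-2. It fell by 0.67 on the log2 scale with IL-2 (SE 0.13, adjusted p = 0.00207). Cenpa, the histone variant that marks centromeres, read 12.22, 12.15 and 12.17 in the media control, 11.51, 11.67 and 11.40 with IL-2 and 11.61, 11.62 and 11.61 with IL-21. It fell by 0.65 with IL-2 (adjusted p = 0.00139) and by 0.57 with IL-21 (adjusted p = 0.00816). With IL-4 it read 11.78, 11.87 and 11.74, below all control arrays, a difference of -0.38 (adjusted p = 0.059, and 0.00852 with the block).

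Kif23, a kinesin of the central spindle and midbody, read 10.21, 9.93 and 10.18 in the media control, 9.46, 9.82 and 9.65 with IL-2 and 9.39, 9.28 and 9.78 with IL-21. Neither cytokine overlapped the control, and Kif23 fell by 0.46 with IL-2 (adjusted p = 0.04) and by 0.62 with IL-21 (adjusted p = 0.015). Nusap1, which binds spindle microtubules, read 12.41, 12.29 and 12.41 in the media control and 11.64 and 12.13 in replicates 1 and 2 with IL-2, with replicate 3 between them, and it fell by 0.45 (adjusted p = 0.0329).

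**Figure D3:**
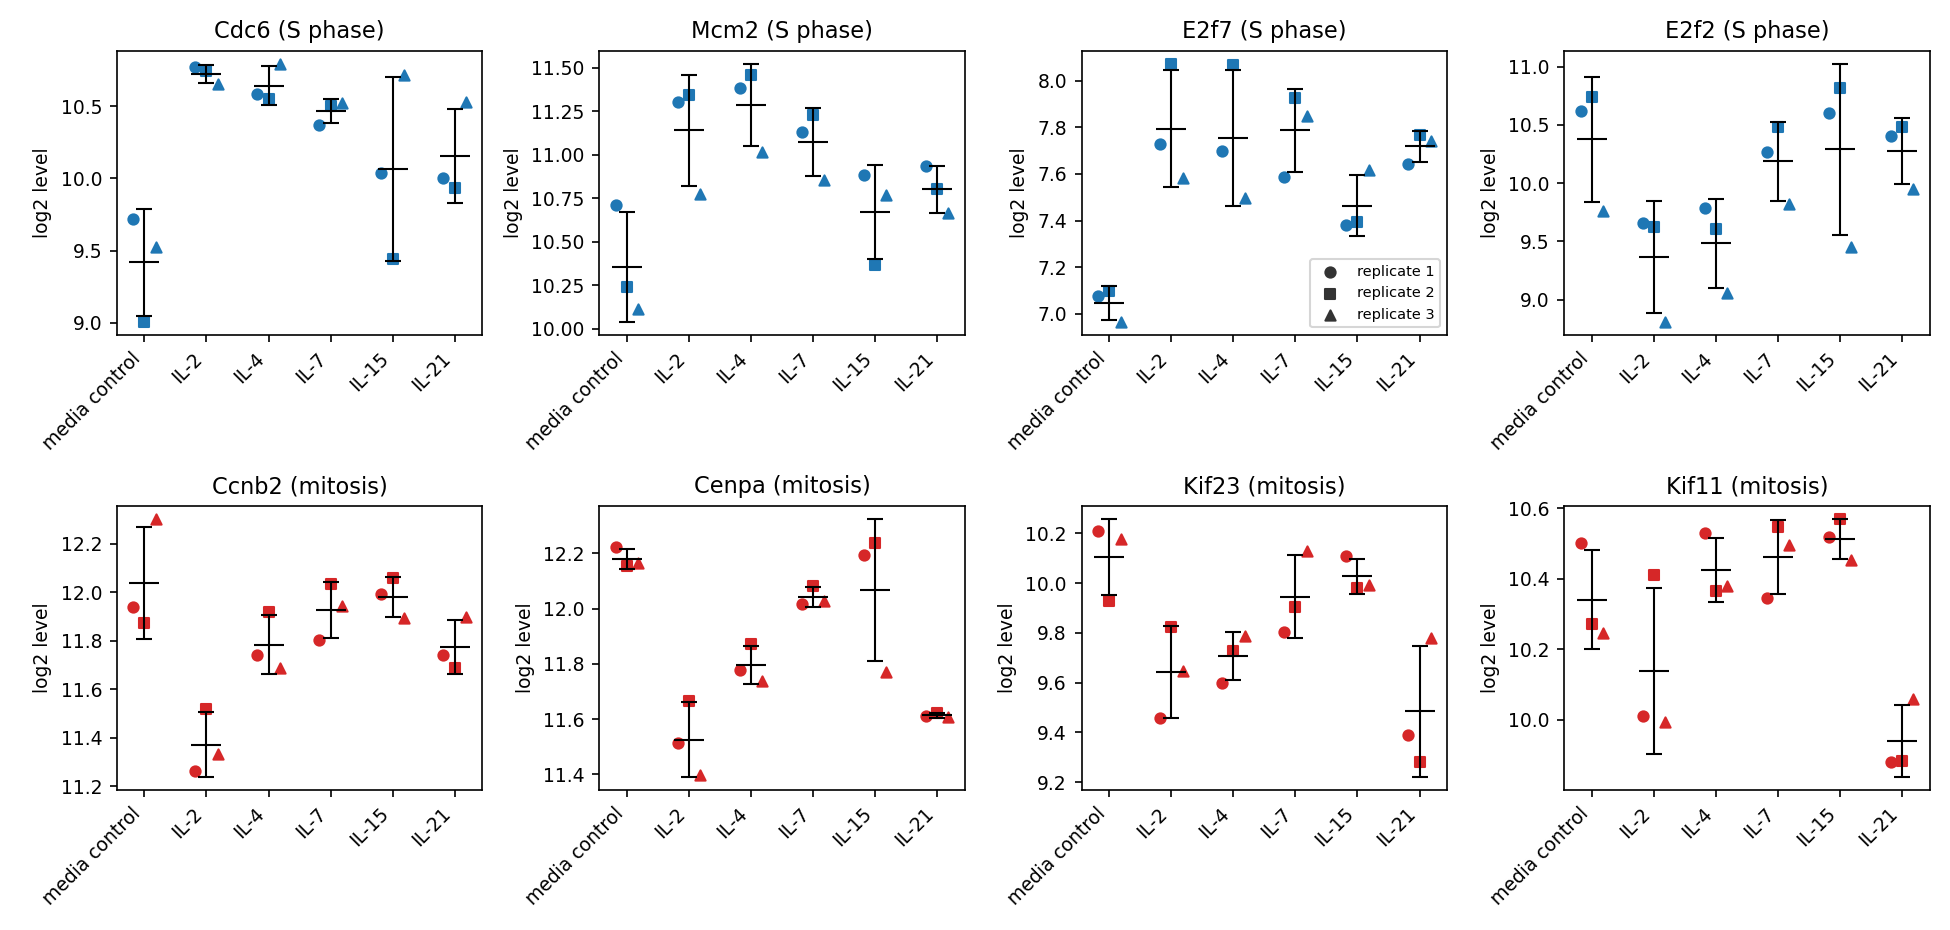
Log2 level of 4 S phase genes (blue) and 4 mitosis genes (red) in each array, by group; symbols stand for replicates 1 to 3, the horizontal mark is the mean of 3 arrays and the bar is 1 SD to either side. Cdc6, Mcm2 and E2f7 lie above the media control with IL-2 and IL-4, and Cenpa and Kif23 lie below it with IL-2 and IL-21.

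Among the mitosis genes Mki67, Top2a, Plk1 and Birc5 were called in neither fit against the media control, and Cdk1 only with the block. Mki67, which coats mitotic chromosomes, read 12.71, 12.51 and 12.82 in the media control and 12.44, 12.63 and 12.46 with IL-2, and its change ran from -0.17 with IL-2 to 0.06 with IL-7 and IL-15. Top2a, the topoisomerase that untangles sister chromatids, read 13.03, 12.89 and 12.84 in the media control and 12.72, 13.12 and 12.77 with IL-2. The change of Top2a ran from -0.10 with IL-21 to 0.22 with IL-7. In both genes the IL-2 arrays overlapped the media control. Cdk1, the kinase that starts mitosis, read 10.76, 10.82 and 11.71 in the media control and 11.12, 11.57 and 11.82 with IL-4, where its change of 0.41 passed only with the block (adjusted p = 0.0321). Plk1, a kinase of spindle assembly, changed by -0.11 with IL-21 to 0.16 with IL-7, and Birc5, a subunit of the chromosomal passenger complex, by -0.21 with IL-2 to 0.24 with IL-21. Their adjusted p against the media control was 0.175 or higher for Birc5 and 0.635 or higher for Plk1, and neither passed with the block.

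With IL-4 the S phase genes gave their largest count. Cdc6, Mcm2, Tk1, Mcm3, Uhrf1 and E2f7 rose, 6 of 29 (20.7%) against 3.98% of all genes called higher, and no member of either set was called lower against 5.1% of all genes. With the block 21 S phase genes rose and 1, E2f2, fell, against 12.9% of all genes in each direction. No mitosis gene was called, and with the block Bub1, Cdk1 and Tpx2 rose and Kif23 and Cenpa fell. These made 12.5% and 8.33% of the 24 mitosis genes, near and below the 12.9% of all genes in each direction. At an unadjusted p under 0.05 there were 4 of 24 mitosis genes and 3755 of all 18194 genes. The S phase count was 3 without replicate 2 of the media control, 3 without replicate 1 of IL-4 and 2 without replicate 2 of IL-4. Within the RNeasy arrays 13 S phase genes and 1 mitosis gene were called, while without replicate 1 of every group, or without replicate 2, the S phase count was 0. Without replicate 1 of the media control alone, 1 mitosis gene was called.

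Tk1, which makes thymidine monophosphate from thymidine, read 10.12, 9.47 and 10.21 in the media control and 10.64, 10.76 and 10.85 with IL-4. It rose by 0.82 ± 0.24 (adjusted p = 0.0461). Mcm3, another helicase subunit, read 11.79, 11.12 and 10.97 in the media control and 12.22, 12.11 and 11.85 with IL-4, a rise of 0.76 ± 0.22 (adjusted p = 0.0403). Uhrf1, which keeps DNA methylation on newly made strands, read 11.61, 10.92 and 11.03 in the media control and 12.12, 11.98 and 11.67 with IL-4, a rise of 0.74 ± 0.22 (adjusted p = 0.0456). In these 3 genes no IL-4 array overlapped the media control, and in each the 3 replicate pairs went the same way.

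With IL-7 the changes had nearly the size of those with IL-4, yet fewer passed the test. The adjustment runs over all genes within each comparison, and limma called 306 genes with IL-7 and 1651 with IL-4. Counts and adjusted p are thus not directly comparable between cytokines. Of the S phase genes only E2f7 rose, 1 of 29 (3.45%) against 0.934% of all genes, and none was called lower against 0.747%. With the block 18 S phase genes (62.1%) rose and none fell, against 8.34% and 8.01% of all genes. Among the mitosis genes Aurkb and Bub1, kinases of chromosome attachment and its checkpoint, rose with the block. They made 8.33% of the 24 mitosis genes, a share near the 8.34% of all genes. Without the block no mitosis gene was called and 2 of 24 had an unadjusted p under 0.05, as did 2579 of all 18194 genes. No S phase gene was called (0) once replicate 2 or 3 of the media control, or any of the 3 IL-7 arrays, was left out, and 6 S phase genes were called without replicate 1 of the media control. The count was also 0 without replicate 1 of every group and without replicate 2.

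IL-15 gave no call with or without the block, in the members or in all genes (0% in each direction by limma). At an unadjusted p under 0.05 there were 3 S phase genes, 1 mitosis gene and 390 of all 18194 genes. Of the 29 S phase genes 28 had a positive difference, and 22 were higher in all 3 replicate pairs. Of all 18194 genes 8492 had a positive difference, and 3288 were higher in all 3 pairs. The S phase genes were read on the same arrays, so they are not separate replicates of the change. The IL-15 arrays differed among themselves, with Cdc6 at 9.45 to 10.71. The 95% interval of the Cdc6 difference, which is not adjusted for the number of genes, ran from 0.10 to 1.19. A missed threshold does not show that IL-15 left these genes as they were in medium alone.

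With IL-21 3 members were called. E2f7 rose, 1 of 29 S phase genes (3.45%) against 3.39% of all genes called higher, a share near that of all genes, and Kif23 and Cenpa fell, 2 of 24 mitosis genes (8.33%) against 3.29% of all genes called lower. With the block Cdc6, E2f7, Gins1 and Mcm2 rose, 4 of 29 (13.8%) against 10.6% of all genes, and 6 mitosis genes fell, 25% against 10.5%. The 4 added by the block were Cdc20, an activator of the anaphase-promoting complex, Ndc80, a kinetochore protein, Kif11, the kinesin that pushes spindle poles apart, and Nusap1. For Kif11 the probe set used gave -0.40, and its 2 other probe sets above background gave -0.10 and 0.17. The call of E2f7 was lost without replicate 3 of the media control or replicate 2 of IL-21. The mitosis count fell to 1 without replicate 1 or 3 of the media control and without replicate 1 or 2 of IL-21. Within the RNeasy arrays it was 3. Without replicate 1 of every group, and likewise without replicate 2, no member of either set was called (0).

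Pcna, the sliding clamp of the polymerases, read 13.80, 13.33 and 13.97 in the media control. The IL-2 arrays read 14.17 and 14.31 in replicates 1 and 3, with replicate 2 the lowest, those of IL-4 14.15, 14.06 and 14.29 and those of IL-7 14.14, 14.02 and 14.29. All 9 of these arrays lay above the media control, and the differences of 0.46, 0.47 and 0.45 passed only with the block (adjusted p = 0.00714, 0.00873 and 0.0185). With IL-15 Pcna read 13.88, 13.40 and 14.32 and with IL-21 13.89, 13.55 and 14.19, both overlapping the control. Rrm2, a subunit of the reductase that makes deoxynucleotides, read 12.32, 12.11 and 12.21 in the media control and 12.87, 12.85 and 12.31 with IL-2, a difference of 0.46 ± 0.17 (adjusted p = 0.0786, and 0.00376 with the block). Its replicate 3 with IL-2 lay inside the range of the control. Tyms, thymidylate synthase, read 6.43, 5.52 and 5.21 in the media control and 6.51, 6.58 and 6.42 with IL-4. All of these lie below the background level of 6.72, so no direction is drawn for it.

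By role, the genes of origin licensing and the helicase (Cdc6, Cdt1, Mcm2 to Mcm7, Cdc45, Gins1 and Gins2) made 3 of the 4 S phase calls under IL-2, 3 of 6 under IL-4 and none under IL-7 or IL-21. Their median change was 0.66 under IL-4, 0.64 under IL-2, 0.54 under IL-7, 0.30 under IL-15 and 0.18 under IL-21. Of these 11 genes 9, 10 and 9 were called higher with the block under IL-2, IL-4 and IL-7, where 15.5%, 12.9% and 8.34% of all genes were. The 9 genes of polymerases, clamp, clamp loader and lagging strand (Pola1, Prim1, Pold1, Pole, Pcna, Rfc3, Rfc4, Fen1 and Lig1) had medians of 0.49, 0.45, 0.44, 0.18 and -0.04 in the same order of cytokines. None of them was called without the block, and 4, 5 and 4 of the 9 were called higher with it under those 3 cytokines, against the same shares of all genes. The 4 genes of nucleotide supply (Rrm1, Rrm2, Tyms and Tk1) had medians of 0.61, 0.45, 0.52, 0.24 and 0.13 in that order. Tyms, below background, entered them with 0.78 under IL-4, 0.01 under IL-2 and 0.67 under IL-7, so no order of cytokines is drawn from them. Rrm1, Rrm2 and Tk1 changed by 0.45, 0.30 and 0.82 under IL-4. Under IL-2 they changed by 0.43, 0.46 and 0.54, and under IL-7 by 0.38, 0.31 and 0.66. Lig1, Mcm7, Pole, Prim1, Rfc4 and Tyms, 6 of the 29, were not called in any comparison with the media control in either fit. For this count too the share of all genes is not given.

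Among the mitosis genes a group of 9 held cyclins and kinases (Cdk1, Ccna2, Ccnb2, Plk1, Aurka, Aurkb, Bub1 and Bub1b) and the phosphatase Cdc25c. Its median change was 0.22 under IL-7, 0.15 under IL-4, 0.06 under IL-2, 0.05 under IL-15 and -0.11 under IL-21. The 6 genes of centromere and kinetochore (Cenpa, Cenpe, Cenpf, Ndc80, Nuf2 and Birc5) had medians of -0.19 with IL-2 and -0.11 with IL-21, and the 5 genes of spindle and midbody (Kif11, Kif20a, Kif23, Nusap1 and Tpx2) -0.20 and -0.40. Within the last group the probe set used for Tpx2, a spindle assembly factor, gave 0.34 with IL-2 and 0.20 with IL-21, while its other probe set above background gave 0.03 and -0.39, so no direction is drawn for it there. In 13 of the 24 mitosis genes, Mki67, Top2a, Plk1 and Ccna2 among them, neither fit called a change with any cytokine. The share of all genes never called is not given, so this count is not read as a trait of the set.

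**Figure D4:**
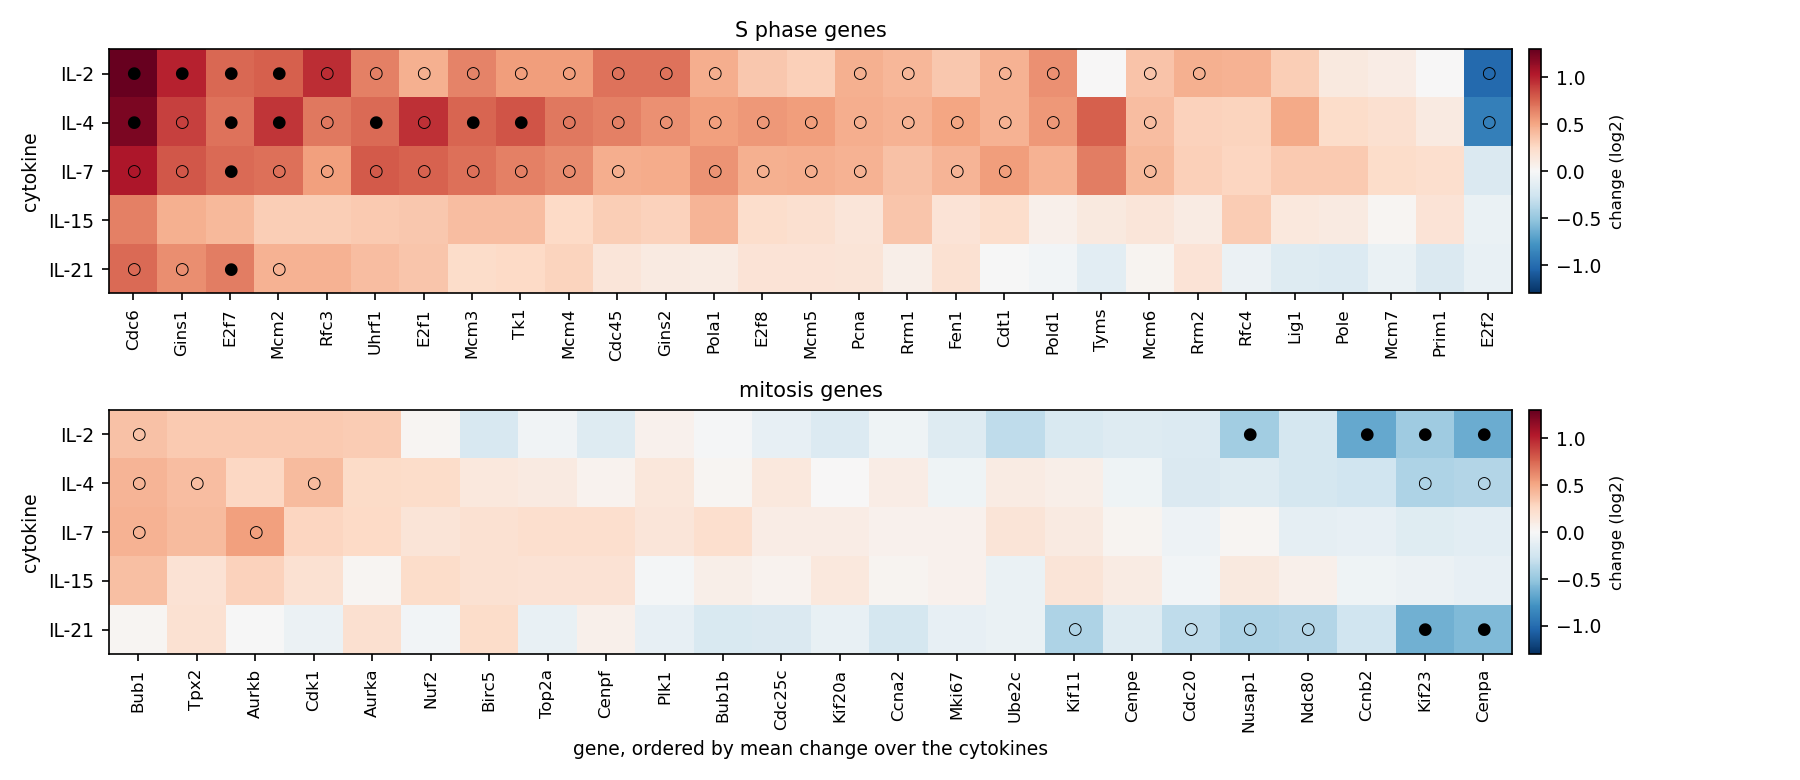
Change of every member from the media control (log2, colour scale with 0 in the middle) for each cytokine (rows), with genes ordered by their mean change; filled circles mark called changes and open circles changes called only with the replicate number as a block. E2f2 stands at the lower end of the S phase genes, and Cenpa, Kif23 and Ccnb2 at that of the mitosis genes.

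Further genes of the same processes were listed beside the members. Of 40 other S phase genes measured, 15 rose under IL-2, 13 under IL-4, 5 under IL-7, 1 under IL-21 and 0 under IL-15, and none fell. These were 37.5%, 32.5%, 12.5%, 2.5% and 0%, against 7.83%, 3.98%, 0.934%, 3.39% and 0% of all genes called higher, so the IL-21 share lay below that of all genes. With the block 19, 23, 23, 8 and 0 rose in that order and none fell, where 15.5%, 12.9%, 8.34%, 10.6% and 0% of all genes were called higher. Orc1, a subunit of the origin recognition complex, had the largest change: it read 7.47, 6.61 and 6.61 in the media control and 9.18, 9.01 and 9.19 with IL-2. It rose by 2.23 ± 0.35 with IL-2 (adjusted p = 3.9e-04) and by 1.77 with IL-4 (adjusted p = 0.00404). Hells, a chromatin remodeller of DNA methylation, rose by 1.26 with IL-2 and 0.83 with IL-7, and Dna2, a nuclease of Okazaki fragments, by 1.21 with IL-2. Pole2, a subunit of DNA polymerase epsilon, rose by 1.39 under IL-4, 1.11 under IL-7 and 0.87 under IL-21, Dscc1, of a clamp loader for cohesion, by 1.13 with IL-4 and Exo1, an exonuclease of repair, by 0.96 with IL-7.

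Of 60 other mitosis genes measured, 7 rose and 2 fell with IL-2, 1 rose and 1 fell with IL-4, and 1 fell with IL-21. The 11.7% higher with IL-2 stood against 7.83% of all genes and the 3.33% lower against 8%, so that the larger count was of higher genes, while the 4 mitosis members called with IL-2 were lower. With IL-4 1.67% in each direction stood against 3.98% and 5.1% of all genes, and with IL-21 1.67% lower against 3.29%. None was called with IL-7 or IL-15. With the block 14 rose and 6 fell under IL-2, 17 and 4 under IL-4, 11 and 1 under IL-7, and 1 and 6 under IL-21. The shares higher were 23.3%, 28.3%, 18.3% and 1.67% against 15.5%, 12.9%, 8.34% and 10.6% of all genes, and those lower 10%, 6.67%, 1.67% and 10% against 15.1%, 12.9%, 8.01% and 10.5%. Smc4, a condensin subunit, read 13.28, 13.40 and 13.52 in the media control, 12.54, 12.58 and 12.65 with IL-2 and 12.33, 12.07 and 12.61 with IL-21. It fell by 0.81 with IL-2, 0.73 with IL-4 and 1.06 with IL-21 (adjusted p = 7.5e-04, 0.00319 and 1.7e-04). Cdc25b, a phosphatase that activates cyclin-dependent kinases at the entry to mitosis, fell by 1.40 with IL-2 (adjusted p = 0.0318). Trip13, which resets the spindle checkpoint, rose by 0.98, Pbk, a mitotic kinase, by 0.90 with IL-2, and Mybl2, a B-Myb factor of the MuvB complex, by 0.74 with IL-4.

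Between cytokines no S phase gene was called without the block in any of the 10 comparisons, and every call was a mitosis gene. At an unadjusted p under 0.05 the number of S phase genes ran from 0 to 10 of 29. The 10 were in IL-4 against IL-21, where 2138 of all 18194 genes had such a p. The genes called were lower with IL-2 (Ccnb2 and Birc5), lower with IL-21 (Kif11) or lower with each of these against IL-15 (Cenpa and Nusap1). Within the RNeasy arrays 5 S phase genes were called in IL-2 against IL-15, 3 in IL-2 against IL-21, 3 in IL-4 against IL-15 and 2 in IL-4 against IL-21. Without replicate 1 of every group, or without replicate 2, none was called (0) and the mitosis counts were 0 as well.

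Against IL-7, IL-2 had lower Ccnb2, Cenpa and Birc5, 3 of 24 mitosis genes, where 1.42% of all genes were called (11.1% with the block, which gave 4 mitosis genes and 1 S phase gene). The members called with the block were 16.7% of the mitosis genes and 3.45% of the S phase genes. Ccnb2 read 11.80, 12.03 and 11.94 with IL-7 and was lower by -0.55 with IL-2 (adjusted p = 0.0471), Cenpa by -0.52 (adjusted p = 0.0462) and Birc5 by -0.41 (adjusted p = 0.0471). Each of these calls was lost when any 1 of the 6 arrays was left out (0 called). Against IL-15, IL-2 had lower Ccnb2 (-0.61), Nusap1 (-0.58), Cenpa (-0.54) and Birc5 (-0.42), 4 of 24, where 8.6% of all genes were called. With the block, which called 22.4% of all genes, 8 mitosis genes were lower, 4 S phase genes (Cdc6, Mcm2, Rfc3 and Rrm2) higher and E2f2 lower with IL-2. That was 33.3% of the mitosis genes and 17.2% of the S phase genes, the latter below the share of all genes. The mitosis count was 2 without replicate 1 of IL-2 and 2 without replicate 1 or 2 of IL-15, and 3 S phase genes were called without replicate 3 of IL-15.

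Birc5 read 11.68, 11.74 and 11.70 with IL-2, 12.08, 12.18 and 12.09 with IL-7, 12.17, 12.10 and 12.11 with IL-15 and 12.17, 12.10 and 12.23 with IL-21. The IL-2 arrays lay below all arrays of these 3 cytokines. It was the only mitosis gene called in IL-2 against IL-21 (-0.46, adjusted p = 0.00866), where 6.58% of all genes were called. That gene made 4.17% of the mitosis genes, below the share of all genes. With the block (21.4% of all genes) 5 S phase genes and 2 mitosis genes were higher with IL-2, and E2f2, Birc5 and Ccnb2 lower. In both directions together this was 20.7% of the S phase genes, near the share of all genes, and 16.7% of the mitosis genes, below it. In IL-2 against IL-4 no member was called against 2.07% of all genes, and with the block (10.6%) Birc5 and Ccnb2 were lower with IL-2. They made 8.33% of the mitosis genes, below the 10.6%. At an unadjusted p under 0.05 that comparison had 4 mitosis genes, 0 S phase genes and 1915 of all 18194 genes.

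Kif11 read 9.88, 9.88 and 10.06 with IL-21. The IL-4 arrays read 10.53, 10.36 and 10.38, those of IL-7 10.34, 10.55 and 10.49 and those of IL-15 10.52, 10.57 and 10.45. No array of IL-21 reached those of the other 3 cytokines. As differences from the media control, the 2 other probe sets of Kif11 above background gave 0.29, 0.26 and 0.29 with IL-4, IL-7 and IL-15 against -0.10 with IL-21, and 0.61, 0.52 and 0.26 against 0.17. The difference was 0.48 for IL-4 (adjusted p = 0.0428), 0.52 for IL-7 (adjusted p = 0.0402) and 0.57 for IL-15 (adjusted p = 0.0169) over IL-21. Kif11 was the only member called in IL-4 against IL-21, where 3.81% of all genes were called, and in IL-7 against IL-21, where 2.24% were called. It alone made 4.17% of the mitosis genes, near the 3.81%. The call against IL-4 was lost (0 called) without any array of IL-4 and without replicate 1 or 2 of IL-21. The call against IL-7 was lost (0 called) without any array of IL-7 and without replicate 1 or 2 of IL-21, and 2 mitosis genes were called without replicate 3 of IL-21. In IL-15 against IL-21, with 3.54% of all genes called, Nusap1 (0.53, adjusted p = 0.0391) and Cenpa (0.45, adjusted p = 0.0498) were also higher with IL-15. These 3 calls were lost (0 called) without replicate 1 or 2 of either cytokine.

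With the block the S phase genes separated IL-4 from IL-21: 7 were higher with IL-4, Tyms below background among them, and E2f2 was lower, against 11.7% of all genes, and 3 mitosis genes were higher. The shares were 27.6% of the S phase genes and 12.5% of the mitosis genes, the latter near that of all genes. Without the block 1 S phase gene was called in that comparison once replicate 3 of IL-4 was left out. In IL-7 against IL-21 the block gave 3 S phase (10.3%) and 7 mitosis genes (29.2%) higher with IL-7, against 8.89% of all genes. In IL-15 against IL-21 it gave 1 (3.45%) and 7 (29.2%) higher with IL-15, against 12.6%. The S phase shares were thus near and below those of all genes. IL-4 compared with either IL-7 or IL-15 had no member called, against 1.34% and 3.64% of all genes. With the block (5.18% and 14.1%) E2f2 was lower with IL-4 in both, at -0.70 and -0.81, and E2f1, Mcm2 and Mcm4 were higher with IL-4 than with IL-15. The S phase genes called were thus 3.45% against IL-7, below the share of all genes, and 13.8% against IL-15, near it. Leaving out replicate 3 of IL-15 gave 2 S phase genes and 1 mitosis gene called in IL-4 against IL-15. In IL-7 against IL-15 no member was called in either fit, where limma called 0.011% of all genes and 0.335% with the block. No member had an unadjusted p under 0.05 there, against 808 of all 18194 genes. The 95% interval, not adjusted for the number of genes, is the measure of what such a comparison leaves possible. For Cdc6 it ran from -0.14 to 0.94 in IL-7 against IL-15.

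Several members had more than 1 probe set annotated to their symbol alone. For 18 S phase genes 25 further probe sets lay above background, and all 25 had the sign of the probe set used under IL-4, IL-7 and IL-15, 24 under IL-2 and 20 under IL-21. For 11 mitosis genes there were 13, and 12 had the same sign under IL-4 and IL-15, 11 under IL-7 and 8 under IL-2 and IL-21. The SD over 3 replicates ran from 0.01 to 1.00 over the S phase genes and groups (median 0.27) and from 0.01 to 0.60 over the mitosis genes and groups (median 0.14). The highest SD belonged to Rfc3, a clamp loader subunit, with IL-15, where it read 8.23 and 10.21 in replicates 2 and 3, with replicate 1 between them, and in all 6 groups replicate 3 of Rfc3 was the highest.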

How the data were processed

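RNA of 18 cultures was labelled by the Ambion MessageAmp Premier protocol and hybridised to Mouse 430 2.0 arrays. Per the labels and the study's methods, the authors read the images with Affymetrix GeneChip Command Console 3.1.1 and made log2 values per probe set with RMA in Affymetrix Expression Console 1.1. These deposited log2 values were the only measurement used. Because 3 arrays lay on a lower scale, the 18 columns were quantile normalized again, which removes any difference that all genes share. Of 45101 probe sets, 34958 were annotated to 1 symbol, 932 to several and 9211 were unnamed here.

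Group means over 18 arrays (12 residual degrees of freedom) were fitted with limma 3.58.1 in R 4.3.3 (lmFit and eBayes, two-sided, Benjamini-Hochberg adjustment over 18194 genes in each of 15 comparisons, threshold 0.05), after the code had been tested on simulated data. Deviations from the group means of arrays with the same replicate number correlated at 0.44 or more in all 45 pairs, against 0.38 or less in the 90 pairs of different number. The replicate numbers of the labels thus pair the arrays, and a fit with the number as a block (10 residual degrees of freedom) is given beside the fit without it. With 3 arrays a group, their number sets the limit of precision. The replicates are biological per the labels, and replicate number 3 cannot be told apart from its extraction kit.

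Genes with values in the text are lead genes of each role, up to 6 called members of each set with the largest change per comparison with the media control, up to 3 between cytokines, and up to 3 called genes of each further list. The members, the further S phase and mitosis genes, the markers and the rule were chosen with earlier results of these data known. The other genes with values (E2f2, E2f8, Tpx2, Bub1, Rfc3 and those called only with the block) were named after their values were seen. The alternatives were the values as deposited, subtraction of array medians, the block, the mean of all probe sets of a gene, only genes above background, leaving out arrays, and fits of the 2 groups compared alone.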

Additional observations from a re-analysis of the deposited data

How the results depend on the processing

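No result changed its sign between called values under any alternative. What depends on the processing is how many members passed the test and how large the median changes were. The cause was not tested. On the values as deposited 18 of the 30 list medians moved by at least the SD of their 3 replicate medians, with and without the block. The counts below are members called, by set and comparison. The shares of all genes called stand above for the fits with and without the block. For the other alternatives they are not given, so a change of count there is not read as a result about the members. With the replicate number as a block the S phase counts against the media control were 20 (IL-2), 22 (IL-4), 18 (IL-7) and 4 (IL-21) and the mitosis counts 5 (IL-4), 2 (IL-7) and 6 (IL-21). Between cytokines the block gave 1 S phase gene in IL-2 against IL-7, IL-4 against IL-7 and IL-15 against IL-21, 5 in IL-2 against IL-15, 6 in IL-2 against IL-21, 4 in IL-4 against IL-15, 8 in IL-4 against IL-21 and 3 in IL-7 against IL-21. Its mitosis counts were 2 in IL-2 against IL-4, 8 in IL-2 against IL-15, 4 in IL-2 against IL-21, 3 in IL-4 against IL-21 and 7 in IL-7 and in IL-15 against IL-21. The block changed the other counts by no more than 1.5 times.

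On the values as deposited all counts were 0, and with the block added to those values 1 S phase gene was called with IL-2 against the media control and 0 mitosis genes with IL-2 or IL-21, 0 S phase genes with IL-21 and 0 mitosis genes in IL-2 against IL-7, IL-15 and IL-21 and in IL-4, IL-7 and IL-15 against IL-21. Subtraction of the array medians gave 2 mitosis genes with IL-2 and 0 S phase genes with IL-21 against the media control, 2 mitosis genes in IL-2 against IL-15, 1 in IL-15 against IL-21 and 0 in IL-2 against IL-7 and IL-21 and in IL-4 and IL-7 against IL-21. The mean of all probe sets gave 8 S phase and 2 mitosis genes with IL-2, 2 S phase genes with IL-7 and 0 mitosis genes with IL-21 against the media control. It gave 1 mitosis gene in IL-2 against IL-4, 1 S phase gene each in IL-2 against IL-15 and IL-21 and IL-4 against IL-15 and IL-21, and 0 mitosis genes in IL-4, IL-7 and IL-15 against IL-21. Testing only genes above background, and so fewer genes, gave 9 S phase genes with IL-2, 1 mitosis gene with IL-4 and 4 S phase genes with IL-7 against the media control, 1 mitosis gene in IL-2 against IL-4, 2 in IL-2 against IL-21 and 1 S phase gene in IL-4 against IL-21. Fitting only the 2 groups compared gave 2 S phase and 1 mitosis gene with IL-2, 2 S phase genes with IL-4, 0 with IL-7 and 0 mitosis genes with IL-21, then 0 mitosis genes in IL-2 against IL-7, IL-15 and IL-21 and IL-4, IL-7 and IL-15 against IL-21, and 1 S phase gene in IL-4 against IL-21.

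Without the 3 arrays on the lower scale there were 7 S phase and 2 mitosis genes with IL-2, 1 mitosis gene with IL-4, 2 S phase genes with IL-7 and 1 mitosis gene with IL-21 against the media control. Between cytokines there were 2 S phase genes in IL-2 against IL-15, IL-4 against IL-15 and IL-4 against IL-21, 1 mitosis gene in IL-4 against IL-15 and 2 in IL-7 against IL-21. Leaving out these arrays together with the block was chosen after seeing the data. It gave 23 S phase and 4 mitosis genes under IL-4, 22 and 10 under IL-2, 20 and 3 under IL-7 and 3 and 5 under IL-21 against the media control. Between cytokines it gave 2 mitosis genes in IL-2 against IL-4, 1 S phase gene in IL-2 against IL-7, 14 and 7 in IL-2 against IL-15, 8 and 3 in IL-2 against IL-21, 1 and 1 in IL-4 against IL-7, 15 and 3 in IL-4 against IL-15, 15 and 4 in IL-4 against IL-21, 2 S phase genes in IL-7 against IL-15, 8 and 9 in IL-7 against IL-21 and 7 mitosis genes in IL-15 against IL-21.

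Leaving out a replicate number or a single array moved the S phase count against the media control between 0 and 14 (IL-2), 0 and 13 (IL-4), 0 and 6 (IL-7) and 0 and 1 (IL-21), and the mitosis count between 0 and 4 (IL-2), 0 and 1 (IL-4) and 0 and 3 (IL-21). Between cytokines the S phase range was 0 to 1 in IL-2 and IL-4 against IL-7, 0 to 5 in IL-2 against IL-15, 0 to 3 in IL-2 against IL-21 and IL-4 against IL-15 and 0 to 2 in IL-4 against IL-21. The mitosis range was 0 to 2 in IL-2 against IL-7 and IL-7 against IL-21, 0 to 5 in IL-2 against IL-15, 0 to 1 in IL-2 against IL-21, IL-4 against IL-15 and IL-4 against IL-21, and 0 to 4 in IL-15 against IL-21. The remaining counts stayed at 0. For Tyms, whose mean lies below the background level, signal over background limits what can be said.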
